A study of Homo sapiens with 12 samples.

Results

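The genes described are 37 named targets of the transcription factor NRF2 and enzymes of glutathione metabolism, chosen by symbol. They were read on 12 Affymetrix PrimeView arrays of A549, an established human lung adenocarcinoma line. Of the 37 genes, 35 could be read among the 18132 genes of the table, each through the probe set of its own with the highest mean over the arrays. TRIM16L shared its probe sets with TRIM16 and FTH1 was not named by the annotation used, so neither was analysed here. The 4 groups had 3 arrays each: untreated control monolayers, monolayers heat shocked for 2 h, monolayers with multiple wounds left for 4 h, and monolayers that received the heat shock and then the wounds. All were grown on uncoated plastic in the same medium with serum and without further agents. The sources used here do not give the heat shock temperature or the time from heat shock to harvest in monolayers without wounds. The labels do not state that arrays of a group were separate cultures, so the p-values measure the spread between these samples, which may be technical. RNA came from whole monolayers, in which fewer cells of a kind and less RNA per cell cannot be told apart.

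NRF2, encoded by NFE2L2, binds antioxidant response elements together with small MAF proteins and turns on genes for glutathione synthesis, thioredoxin, NADPH and the removal of quinones and carbonyls. KEAP1 binds NRF2 in unstressed cells and hands it to a CUL3 ubiquitin ligase for degradation. A549 carries a KEAP1 mutation that leaves NRF2 active all the time, so its targets are known to be high in this line before any treatment. Glutathione, the main small thiol of the cell, is made from cysteine, glutamate and glycine, and cystine import and glutamate cysteine ligase set its rate.

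To show what an NRF2 element looks like in these genes, the 250 bases before the start site were searched for the core letters TGACNNNGC on either strand, in RefSeq promoters of build GRCh38.p14. Promoters were found for 26 of the 35 genes. The core was present for 8 of the 26, namely GCLM, KEAP1, ME1, TXNRD1, GPX2, PGD, EPHX1 and CBR1, or 30.8%, against 13.2% of the 27305 genes with such a promoter. A match is a description of letters, not of a bound site. The 3 promoters below are shown whole because GCLM and KEAP1 fell and ME1 rose in the arrays. Capitals mark the core, and each run is written 5′ to 3′ in the direction of the gene.
GCLM (chr1:93909431-93909680, minus strand): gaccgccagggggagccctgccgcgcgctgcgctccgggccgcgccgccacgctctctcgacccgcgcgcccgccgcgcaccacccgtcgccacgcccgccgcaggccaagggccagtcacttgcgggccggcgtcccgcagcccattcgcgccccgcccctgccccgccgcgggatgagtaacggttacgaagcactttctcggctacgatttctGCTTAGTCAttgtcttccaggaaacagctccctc
KEAP1 (chr19:10502772-10503021, minus strand): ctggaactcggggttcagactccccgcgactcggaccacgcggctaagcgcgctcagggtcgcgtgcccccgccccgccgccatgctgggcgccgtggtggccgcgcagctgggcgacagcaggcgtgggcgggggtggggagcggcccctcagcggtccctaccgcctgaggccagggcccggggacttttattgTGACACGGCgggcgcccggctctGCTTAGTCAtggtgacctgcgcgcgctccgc
ME1 (chr6:83431052-83431301, minus strand): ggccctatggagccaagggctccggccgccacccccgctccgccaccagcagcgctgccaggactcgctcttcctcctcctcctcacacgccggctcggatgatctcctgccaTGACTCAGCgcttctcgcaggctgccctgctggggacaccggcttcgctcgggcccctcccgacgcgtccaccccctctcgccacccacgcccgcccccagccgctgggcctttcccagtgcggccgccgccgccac
The first base of the match lay 34 bases before the start in GCLM, 54 and 31 bases before it in KEAP1 and 137 bases before it in ME1. GCLM and KEAP1 shared the same 9 letters at their nearest match, on the strand opposite to the gene.

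Shorter windows are given for 3 further genes that changed in the combined group, with the core again in capitals. TXNRD1 had a match in 2 of its promoters.
TXNRD1, upstream start (chr12:104215670-104215698, plus strand): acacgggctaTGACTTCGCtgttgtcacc
TXNRD1, downstream start (chr12:104286920-104286948, plus strand): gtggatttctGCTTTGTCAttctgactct
GPX2 (chr14:64942849-64942877, minus strand): acctgtttttGCTAAGTCAtcctggggat
PGD (chr1:10398853-10398881, plus strand): cctcgccgggGCAATGTCAtctaggtgct
The related AP-1 core TGANTCA, its own reverse complement, was found before the starts of 2 genes, ME1, where it overlaps the NRF2 core, and OSGIN1, and in 8.06% of all genes. In OSGIN1 it began 97 bases before the start.
OSGIN1 (chr16:83953133-83953159, plus strand): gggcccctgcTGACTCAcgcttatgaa
A heat shock element, the triplets GAA, TTC and GAA spaced by 2 bases, was in the promoters of 0 of the 26 genes and of 0.557% of all genes.

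Array medians over genes lay between 6.02 and 6.08, and arrays of a group correlated at 0.9951 to 0.9985. Replicate 2 of the combined group stood apart, with an interquartile range of 4.31 against 4.46 to 4.58 on the other arrays, so results with that group are also given without it. The epithelial markers KRT7, KRT8, KRT18, KRT19, EPCAM and CDH1 read between 9.13 and 13.8 in control. Of 8 alveolar type II markers, ABCA3 was the highest at 7.65 and SFTPA1 the lowest at 2.26. The surfactant markers SFTPA1, SFTPB, SFTPC and SFTPD lay between 2.26 and 6.08, and 10 leukocyte and endothelial markers lay between 2.27 and 6.84. Levels of different probe sets do not rank transcripts, so these ranges are a description. The 35 genes ranged in control from 7.78 for EPHX1 to 13.99 for FTL. Values below are log2 levels, the error after ± is the SE of a difference, and a gene rose or fell where its limma p, adjusted over all genes by Benjamini-Hochberg, was under 0.05.

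Against control 11 of the 35 genes fell after heat shock and wounding (31.4%; 14.4% of all genes fell) and 2 rose (8.66% of all genes rose). The members that fell were NFE2L2, KEAP1, SLC7A11, GCLC, GCLM, GSR, GPX2, ABCC2, TXNRD1, PGD and OSGIN1, and those that rose were HMOX1 and ME1. Heat shock alone raised HMOX1, ME1 and UGDH, 3 of 35 (4.93% of all genes rose), and lowered 0 (7.92% of all genes fell). Of the 35, 4 were lower at an unadjusted p under 0.05, and 3 fell in a limma fit with a trended and robust spread. Wounding alone lowered NFE2L2 only (1 of 35; 1.31% of all genes fell) and raised 0 (2.27% of all genes rose; 1 with an unadjusted p under 0.05 and 0 with the trended spread). Heat shock raised 894 and lowered 1436 of all genes, a split of 1058 and 1052 with median centring and 1091 and 1120 with cyclic loess. Both treatments raised 1571 and lowered 2609, a split of 1824 and 2232 with median centring and 1931 and 1947 with cyclic loess. The 3 comparisons share the control arrays. The shares of all genes, here and below, include dim genes, while the lowest member read 7.78 in control. They are therefore not shares among genes as bright as the members. In limma among genes with a mean level of at least 5, 2945 fell and 1513 rose after both treatments, more falls from fewer genes. ABCC3, SRXN1 and TALDO1 also fell in that fit.

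The median difference of the 35 genes was -0.09 after both treatments, against -0.01 for all genes, and 30 of the 35 values were below zero. After heat shock alone the medians were -0.02 and -0.03, and after wounding alone -0.06 and -0.03. Many genes of the table are dimmer than any member. Among genes with a mean level of at least 5 the median was -0.06 after both treatments, nearer to the -0.09 of the members. It was -0.05 after heat shock alone and -0.03 after wounding alone. Without replicate 2 of the combined group 8 members fell (11.2% of all genes) and 2 rose (7.38%) against control, and GPX2, TXNRD1 and PGD did not pass. The count of falls was 7 without control replicate 1, control replicate 2, or replicate 1 or 3 of the combined group. The 7 that fell with each of the 12 arrays left out in turn were NFE2L2, KEAP1, SLC7A11, GCLC, GCLM, ABCC2 and OSGIN1. With arrays centred on their medians or normalised by cyclic loess the falls were these 7 as well.

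**Figure D1:**
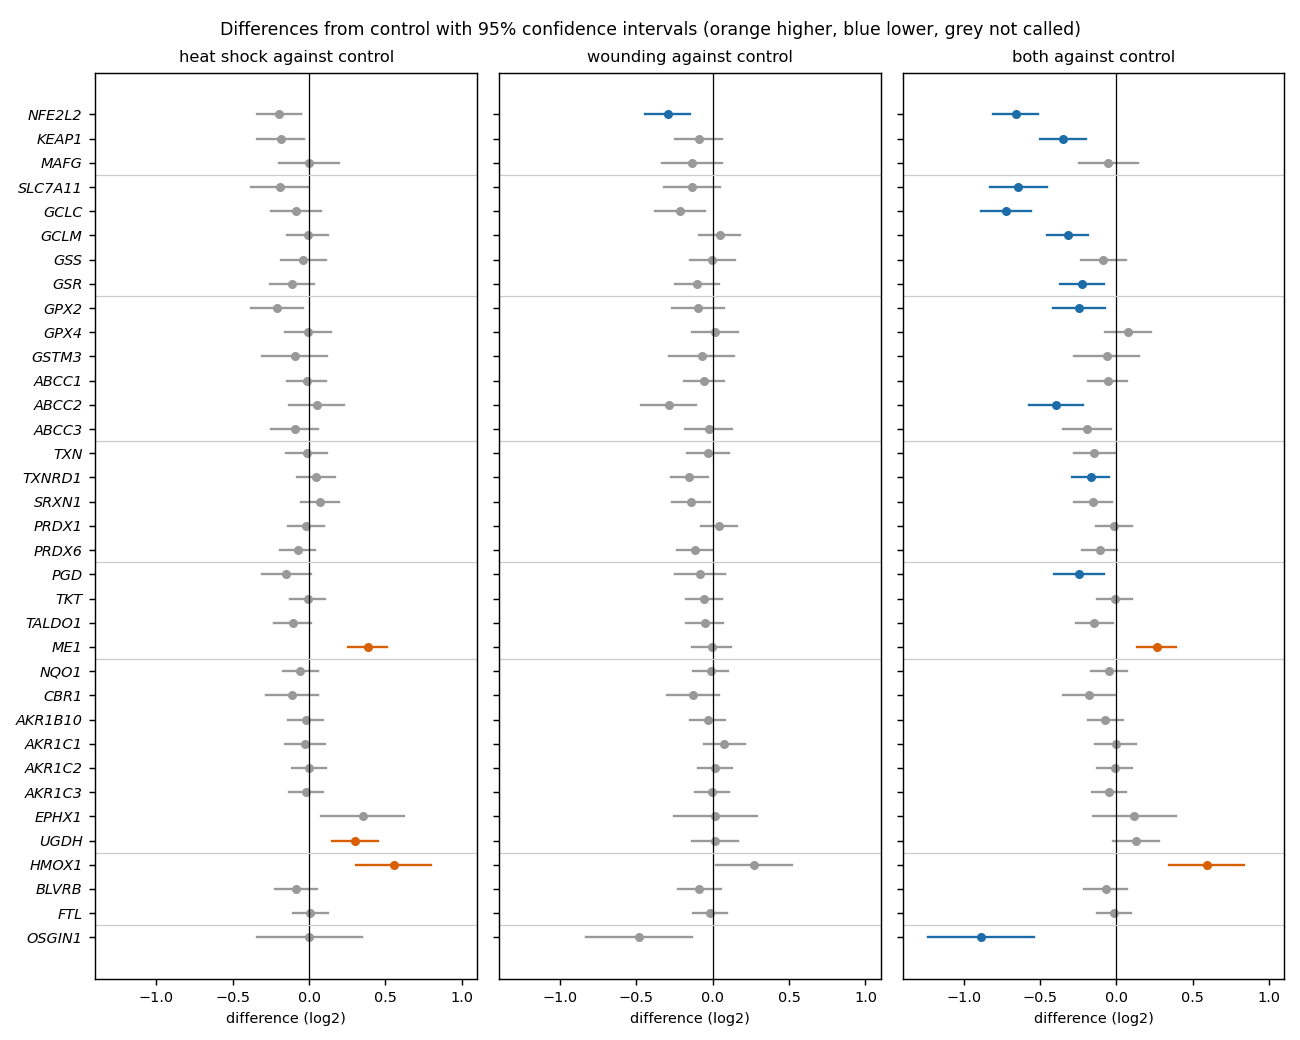
Differences from control (log2) for the 35 genes, in bands by role, for heat shock, wounding and the combination. Points are limma estimates from 3 arrays a group, lines are 95% confidence intervals, and colours mark genes that rose (orange) or fell (blue). Blue points are almost all in the rightmost panel, from OSGIN1 at -0.89 to TXNRD1 at -0.17, while HMOX1 and ME1 are orange in the left and right panels.

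Set against wounding alone, the combined treatment lowered 5 of the 35 genes (8.60% of all genes fell) and raised 1 (6.31% of all genes rose). NFE2L2, KEAP1, SLC7A11, GCLC and GCLM were lower and ME1 higher. Set against heat shock alone, it lowered 7 of the 35 (1.58% of all genes fell) and raised 0 (2.71% of all genes rose; 0 with an unadjusted p under 0.05 and 0 with the trended spread). Those 7 were NFE2L2, SLC7A11, GCLC, GCLM, ABCC2, SRXN1 and OSGIN1. Without replicate 2 of the combined group the falls were 4 (5.49% of all genes) against wounding, where 1 rose (4.64%), and 6 (0.750%) against heat shock, where 0 rose (2.00%). In that fit KEAP1 against wounding had an adjusted p of 0.0864 and SRXN1 against heat shock 0.0882.

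NFE2L2 was the regulator that moved most. It read 10.84, 10.84 and 10.82 in control, 10.70, 10.68 and 10.54 after heat shock, 10.55, 10.60 and 10.46 with wounds alone and 10.25, 10.12 and 10.16 after both. All 9 treated arrays were under the control arrays, and the combined group lay under both single treatments. It fell by 0.66 ± 0.07 after both (36.7% lower, adjusted p = 1.75e-05), and by 0.63 without replicate 2 of that group (adjusted p = 0.000104). After wounding alone it fell by 0.30 ± 0.07 (adjusted p = 0.0292), a call that was lost without any 1 of the 3 control or 3 wounded arrays (adjusted p from 0.0633 to 0.112). After heat shock it differed by -0.20 ± 0.07 and did not pass (adjusted p = 0.073). It did pass as lower there in limma among genes with a mean level of at least 5 (adjusted p = 0.0299) and with the trended spread (adjusted p = 0.0129). The combined treatment was also lower than wounding by 0.36 and than heat shock by 0.46 on the log2 scale, and the other NFE2L2 probe set fell in both comparisons and against control.

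KEAP1, the substrate adaptor that keeps NRF2 low, read 8.85, 8.91 and 8.76 in control, 8.66, 8.61 and 8.70 after heat shock, 8.72, 8.66 and 8.87 with wounds alone and 8.51, 8.44 and 8.53 after both. The combined arrays were under all others. It fell by 0.35 ± 0.07 against control (21.6% lower, adjusted p = 0.0031), and by 0.32 without replicate 2 of the combined group (adjusted p = 0.013). Against wounding alone it was lower by 0.26 ± 0.07 (adjusted p = 0.0281), which did not pass without wounded replicate 1 or 3 or combined replicate 1 or 2 (adjusted p from 0.0596 to 0.101). These values read KEAP1 RNA and say nothing of the mutant protein. MAFG, a small MAF partner of NRF2, read 8.24, 8.38 and 8.28 in control, 8.35, 8.31 and 8.24 after heat shock, 8.02, 8.13 and 8.34 with wounds alone and 8.12, 8.36 and 8.25 after both. Its groups overlapped, and it differed by -0.05 ± 0.09 after both (95% interval -0.25 to 0.14).

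**Figure D2:**
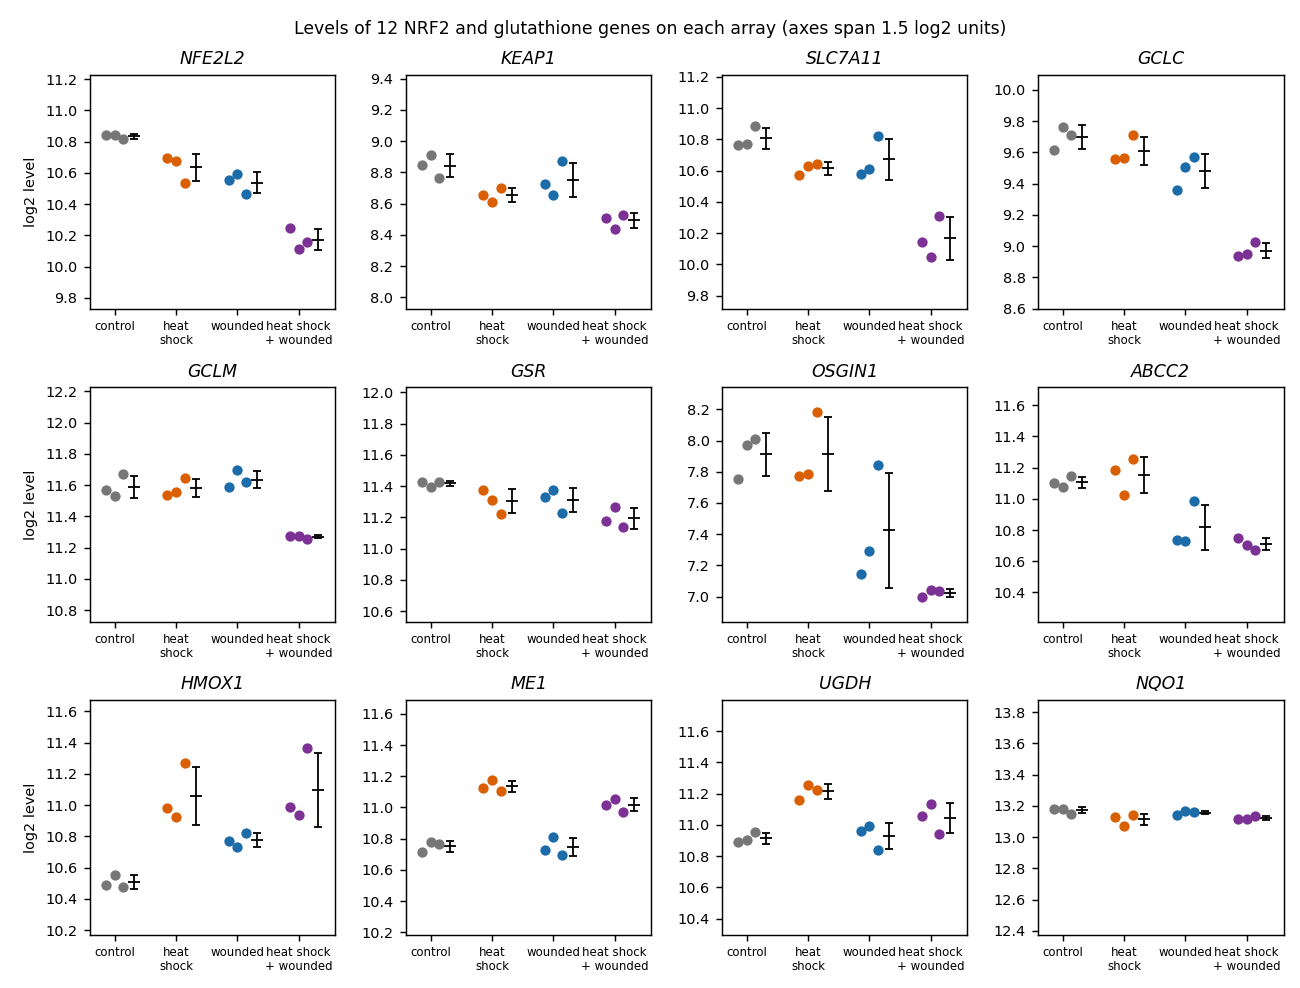
Log2 levels of 12 genes on each of the 12 arrays, with group mean and SD (bars, n = 3). Each panel spans the same number of log2 units. GCLC, GCLM and SLC7A11 are lowest in the 3 combined arrays (GCLC 8.93 to 9.03), HMOX1 is lowest in control, ME1 is high in both heat shocked groups, and NQO1 lies between 13.07 and 13.18.

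Of the 5 genes of glutathione supply, 4 fell in the combined group (14.4% of all genes fell). After heat shock 0 of the 5 fell (7.92% of all genes), and after wounding 0 fell (1.31% of all genes). In each single treatment 1 of the 5 had an unadjusted p under 0.05. GCLC, the catalytic subunit of glutamate cysteine ligase, read 9.61, 9.76 and 9.71 in control, 9.56, 9.56 and 9.71 after heat shock, 9.36, 9.51 and 9.57 with wounds alone and 8.93, 8.95 and 9.03 after both. The combined arrays lay under every other array, with no overlap. GCLC fell by 0.73 ± 0.07 against control (39.5% lower, 95% interval -0.89 to -0.56, adjusted p = 2.24e-05). It was lower by 0.51 against wounding and by 0.64 against heat shock (adjusted p = 0.000855 and 0.000407). Without combined replicate 2 its fall against control was 0.72 (adjusted p = 0.000131). Of its 3 other probe sets, 2 fell as well and the remaining 1 had the same sign.

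GCLM, the modifier subunit of the same ligase, read 11.57, 11.53 and 11.67 in control, 11.54, 11.55 and 11.65 after heat shock, 11.59, 11.69 and 11.62 with wounds alone and 11.28, 11.28 and 11.26 after both. Control and both single treatments overlapped, and only the combined arrays were low. It fell by 0.32 ± 0.06 against control (19.8% lower, adjusted p = 0.00254), by 0.36 against wounding and by 0.31 against heat shock. SLC7A11, the cystine transporter subunit that feeds cysteine into the pathway, read 10.77, 10.77 and 10.89 in control, 10.57, 10.63 and 10.64 after heat shock, 10.58, 10.61 and 10.82 with wounds alone and 10.14, 10.04 and 10.31 after both. Again the combined arrays were under all others, replicate 2 lowest of them. The fall against control was 0.64 ± 0.08 (35.9% lower, adjusted p = 0.000154) and 0.58 without replicate 2 (adjusted p = 0.000731). SLC7A11 was lower than after wounding by 0.51 and than after heat shock by 0.45 (adjusted p = 0.00193 and 0.00938). Fitted on the compared groups only, the differences from heat shock did not pass for SLC7A11 (adjusted p = 0.0533) or GCLM (adjusted p = 0.0887), and with the mean of its probe sets SLC7A11 did not pass there either (adjusted p = 0.0528).

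GSR, which reduces oxidised glutathione with NADPH, read 11.43, 11.40 and 11.43 in control, 11.38, 11.31 and 11.22 after heat shock, 11.33, 11.38 and 11.23 with wounds alone and 11.18, 11.27 and 11.14 after both. Every treated array was under the control arrays, but the treated groups overlapped. It fell by 0.22 ± 0.07 after both (adjusted p = 0.0289). The call was lost without any 1 control array or without combined replicate 1 or 3 (adjusted p from 0.0603 to 0.086). GSS, the glutathione synthetase of the second step, differed by -0.09 ± 0.07 after both and did not pass (95% interval -0.24 to 0.06).

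Of the 6 genes of glutathione use and export, 2 fell after both treatments (14.4% of all genes fell). ABCC2, an apical exporter of glutathione conjugates, read 11.10, 11.07 and 11.14 in control, 11.18, 11.03 and 11.25 after heat shock, 10.74, 10.73 and 10.99 with wounds alone and 10.75, 10.70 and 10.67 after both. Wounded arrays were low whether or not heat shock came first, and heat shocked arrays overlapped control. It fell by 0.40 ± 0.08 after both against control (adjusted p = 0.00367) and by 0.45 ± 0.08 against heat shock alone (adjusted p = 0.00786). After wounding alone it differed by -0.29 ± 0.08 (adjusted p = 0.09), and it passed there without wounded replicate 3, the highest of that group. With all arrays it passed there in limma among genes with a mean level of at least 5 (adjusted p = 0.0404) and with the trended spread (adjusted p = 0.00848). GPX2, a glutathione peroxidase of epithelia, read 12.37, 12.53 and 12.24 in control, 12.23, 12.18 and 12.09 after heat shock, 12.29, 12.29 and 12.26 with wounds alone and 12.18, 12.17 and 12.05 after both. It fell by 0.25 ± 0.08 after both (adjusted p = 0.0386), a call kept in only 4 of 12 fits with 1 array left out, those without control replicate 3, heat shock replicate 1 or 3 or wounded replicate 3 (otherwise adjusted p from 0.0507 to 0.162). GPX4, the peroxidase of lipid hydroperoxides, GSTM3, a glutathione transferase, and the exporters ABCC1 and ABCC3 differed by -0.19 to 0.08 after both and did not pass. ABCC3, at -0.19, passed as lower in limma among genes with a mean level of at least 5 (adjusted p = 0.0357). It also passed with the trended spread (adjusted p = 0.0113) and without control replicate 3 (adjusted p = 0.0246).

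In the thioredoxin system the sizes were small. TXNRD1, which reduces thioredoxin, read 12.98, 12.98 and 12.995 in control, 13.01, 13.01 and 13.07 after heat shock, 12.78, 12.84 and 12.87 with wounds alone and 12.86, 12.81 and 12.77 after both. SRXN1, which repairs overoxidised peroxiredoxins, read 12.27, 12.30 and 12.27 in control, 12.36, 12.31 and 12.40 after heat shock, 12.13, 12.09 and 12.20 with wounds alone and 12.14, 12.15 and 12.10 after both. In both genes every wounded and combined array lay under every control and heat shocked array. TXNRD1 fell by 0.17 ± 0.06 after both against control (adjusted p = 0.0481), a call lost in 10 of the 12 fits with 1 array left out, those without heat shock replicate 3 or wounded replicate 3 being the other 2 (adjusted p from 0.0595 to 0.122 where lost). SRXN1 fell by 0.22 ± 0.06 against heat shock alone (adjusted p = 0.0465), lost in 11 of 12 such fits, all but that without wounded replicate 3 (adjusted p from 0.0612 to 0.137). Other limma fits added calls. Among genes with a mean level of at least 5, TXNRD1 was lower after both than after heat shock (adjusted p = 0.0177) and SRXN1 than in control (adjusted p = 0.0302). With the trended spread these passed too (adjusted p = 0.000284 and 0.00365), as did TXNRD1 after wounding (adjusted p = 0.00694). With median centring TXNRD1 passed against heat shock (adjusted p = 0.0481). TXN, thioredoxin itself, and the peroxiredoxins PRDX1 and PRDX6 differed by -0.15, -0.02 and -0.11 after both and did not pass, though TXN and PRDX6 passed as lower with the trended spread (adjusted p = 0.00636 and 0.0153). Another PRDX6 probe set rose by 0.24 after heat shock (adjusted p = 0.0413 over all probe sets).

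Among the 4 NADPH supply genes, 1 rose and 1 fell after both treatments (8.66% and 14.4% of all genes). ME1, cytosolic malic enzyme, read 10.71, 10.78 and 10.77 in control, 11.13, 11.18 and 11.11 after heat shock, 10.73, 10.81 and 10.70 with wounds alone and 11.02, 11.06 and 10.97 after both. All 6 heat shocked arrays were above all 6 others. ME1 rose by 0.38 ± 0.06 after heat shock (1.31-fold, adjusted p = 0.00119) and by 0.26 ± 0.06 after both (adjusted p = 0.00592). It was 0.27 higher after both than after wounding (adjusted p = 0.00888), and these calls held with each array left out. Its other probe set passed as higher after heat shock, and had the same sign without passing after both, against control or wounding. PGD, of the pentose phosphate pathway, read 12.15, 12.21 and 12.16 in control, 12.04, 11.87 and 12.15 after heat shock, 12.10, 12.02 and 12.14 with wounds alone and 11.96, 11.86 and 11.95 after both. It fell by 0.25 ± 0.08 after both (adjusted p = 0.0322), and did not pass without any 1 of the 3 control or 3 combined arrays (adjusted p from 0.052 to 0.102). TKT and TALDO1, the transketolase and transaldolase of that pathway, differed by -0.01 and -0.14 after both and did not pass. Averaged over all its probe sets TALDO1 fell by 0.32 (adjusted p = 0.00587). Through the probe set used it passed as lower in limma among genes with a mean level of at least 5 (adjusted p = 0.0297) and with the trended spread (adjusted p = 0.00284).

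Of the 8 enzymes that remove quinones, carbonyls and epoxides, only UGDH rose after heat shock (1 of 8, against 4.93% of all genes). After both treatments 0 of the 8 passed in limma through the probe set used (14.4% of all genes fell and 8.66% rose). CBR1 (adjusted p = 0.0371) and AKR1B10 (adjusted p = 0.0352) passed as lower with the trended spread, and dimmer probe sets of NQO1 and CBR1 fell. NQO1, the quinone reductase often used to read NRF2 activity, read 13.18, 13.18 and 13.15 in control, 13.13, 13.07 and 13.14 after heat shock, 13.15, 13.17 and 13.16 with wounds alone and 13.12, 13.11 and 13.13 after both. It differed by -0.05 ± 0.05 after both (95% interval -0.16 to 0.07, adjusted p = 0.578). Its other, less bright probe set fell by 0.20 after both (adjusted p = 0.046 over all probe sets), so the probe sets of NQO1 disagree. The aldo-keto reductases AKR1B10, AKR1C1, AKR1C2 and AKR1C3 differed by -0.07, -0.005, -0.01 and -0.05, and the carbonyl reductase CBR1 by -0.18 (adjusted p = 0.127). Of the 6 other CBR1 probe sets, 2 fell after both, by 0.25 and 0.24 (adjusted p = 0.0352 and 0.0436 over all probe sets). AKR1C1, AKR1C2 and AKR1C3 are near-identical in sequence, so these values are uncertain as readings of single genes. UGDH, which makes UDP-glucuronic acid for conjugation, read 10.89, 10.90 and 10.95 in control, 11.16, 11.26 and 11.22 after heat shock, 10.96, 10.99 and 10.84 with wounds alone and 11.06, 11.13 and 10.94 after both. It was high in the 3 heat shocked arrays and rose there by 0.30 ± 0.07 (1.23-fold, adjusted p = 0.0131), which did not pass without control replicate 1 (adjusted p = 0.0558) or heat shock replicate 2 (adjusted p = 0.0502). EPHX1, microsomal epoxide hydrolase, differed by 0.35 ± 0.13 after heat shock (adjusted p = 0.09). It passed as higher there in limma among genes with a mean level of at least 5 (adjusted p = 0.0490) and with the trended spread (adjusted p = 0.0341). The difference was 0.16 over replicates 1 and 2 and 0.75 in replicate 3.

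Several members had very bright signals. The highest value of all genes and arrays was 14.02, and 15 of the 35 members had a control mean above 12 and 8 above 13, as did 1.45% and 0.430% of all genes. Such values describe the brightness of a probe set and do not rank transcripts. Of the 263 genes above 12, 41 were called after both treatments (15.6%), as were 3 of the 15 members. Of the 78 genes with a control mean above 13, 0 passed limma in any of the 6 comparisons, with 0 to 4 at an unadjusted p under 0.05, and 0 to 8 passed with the trended spread. The 8 members among them, which included NQO1, TXN, PRDX1, FTL and 3 aldo-keto reductases, differed by -0.15 to -0.01 after both treatments. Of the 27 other members, 13 changed after both. Whether saturation compressed the bright probe sets was not tested.

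**Figure D3:**
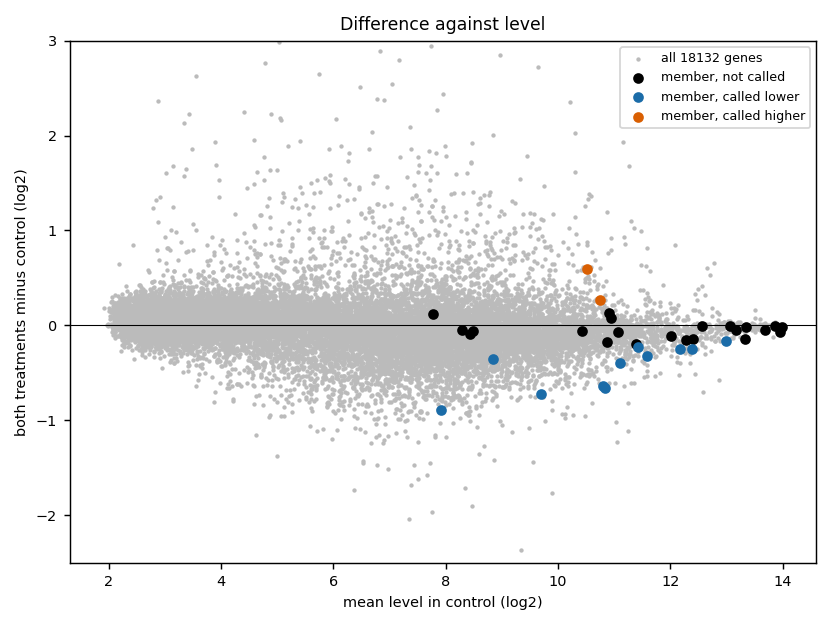
Difference between the combined group and control (log2) against the mean log2 level in control, for 18132 genes (grey; 12 lie outside the plotted range) and the 35 members (black not called, blue lower, orange higher). The cloud narrows at the bright end, where 8 members above 13 lie within -0.15 to -0.01.

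HMOX1, haem oxygenase 1, which degrades haem and is induced by many stresses, was the member that rose most. It read 10.49, 10.56 and 10.47 in control, 10.98, 10.92 and 11.27 after heat shock, 10.77, 10.73 and 10.82 with wounds alone and 10.99, 10.94 and 11.37 after both. Every treated array was above control, and replicate 3 was the highest in each treated group. HMOX1 rose by 0.55 ± 0.11 after heat shock (1.47-fold, adjusted p = 0.00692) and by 0.59 ± 0.11 after both (1.51-fold, adjusted p = 0.00226). The sample descriptions carry the codes S2a, S2b and S3a for replicates 1, 2 and 3, with no meaning stated. Over replicates 1 and 2, which share the S2 prefix, the HMOX1 differences were 0.43 and 0.44, and in replicate 3 they were 0.80 and 0.89. All 30 called differences of members had the same sign in replicates 1 and 2 together and in replicate 3. They were called on these same arrays, so the shared sign is not a separate test. After wounding alone HMOX1 differed by 0.27 ± 0.11 and did not pass (adjusted p = 0.317). The ferritin light chain FTL read 13.96 to 14.02 on all arrays, and biliverdin reductase B, BLVRB, differed by -0.07 after both.

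OSGIN1, an NRF2-induced growth inhibitor gene, had the largest fall. It read 7.76, 7.97 and 8.01 in control, 7.77, 7.79 and 8.18 after heat shock, 7.14, 7.29 and 7.84 with wounds alone and 6.996, 7.04 and 7.03 after both. The combined arrays were close together and under all others, while the wounded arrays spread widely, with replicate 3 among the control values. OSGIN1 fell by 0.89 ± 0.16 after both against control (45.9% lower, adjusted p = 0.00146) and by 0.89 ± 0.16 against heat shock alone (adjusted p = 0.00702), and by 0.90 in each without combined replicate 2. After wounding alone it differed by -0.49 ± 0.16 (adjusted p = 0.159), and it passed there when wounded replicate 3 was left out (adjusted p = 0.0104).

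Whether heat shock changed the wound response of these genes was asked through the interaction, the combined difference minus the sum of the single ones. None of the 35 members passed it in limma (smallest adjusted p = 0.469), 3 had an unadjusted p under 0.05, and 0 passed with the trended spread. In all 1 of 18132 genes passed (0.00552%). The 3 were all of glutathione supply. GCLM differed by -0.01 after heat shock, 0.04 with wounds alone and -0.32 after both, an interaction of -0.35 ± 0.09 (unadjusted p = 0.00163). GCLC differed by -0.09, -0.22 and -0.73, an interaction of -0.42 ± 0.11 (unadjusted p = 0.00178). SLC7A11 differed by -0.19, -0.14 and -0.64, an interaction of -0.31 ± 0.12 (unadjusted p = 0.0227). None of these held after adjustment, so a fall beyond the sum of the single treatments was not shown for any member. For NFE2L2 the interaction was -0.17 ± 0.09 and for HMOX1 -0.23 ± 0.16.

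**Figure D4:**
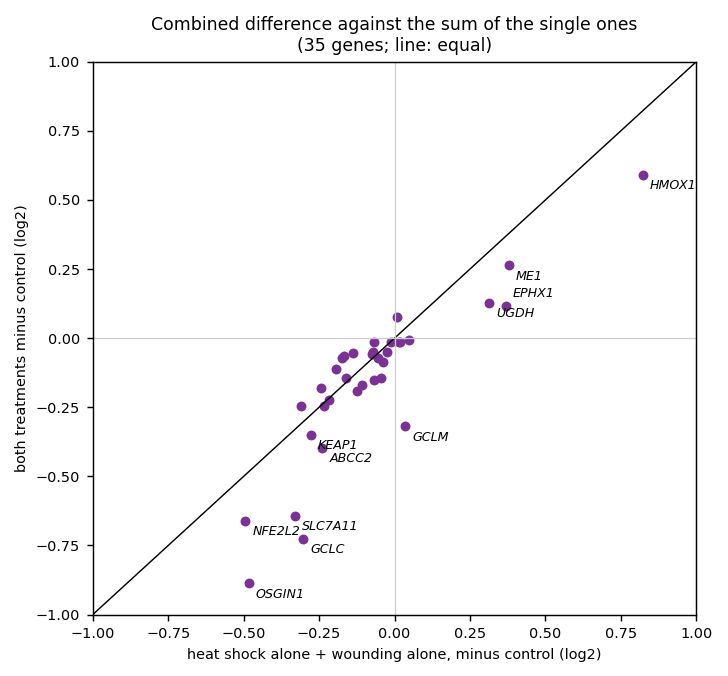
Combined difference from control (log2, y axis) against the sum of the differences after heat shock alone and wounding alone (x axis) for the 35 genes; the line marks equal values, and both axes use the same control arrays. GCLM, GCLC, SLC7A11 and OSGIN1 lie under the line (interactions -0.35, -0.42, -0.31 and -0.40), and HMOX1 lies right of zero and under it.

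Further genes of the pathway that are not members were read from 5 lists, of which 105 genes could be measured. After both treatments 21 of the 105 fell and 6 rose (14.4% and 8.66% of all genes). After heat shock 10 fell and 6 rose (7.92% and 4.93% of all genes), and after wounding 1 fell and 0 rose (1.31% and 2.27% of all genes; 5 were higher after wounding at an unadjusted p under 0.05). The medians were -0.07, -0.07 and -0.05, against -0.01, -0.03 and -0.03 for all genes. Among genes with a mean level of at least 5 they were -0.06, -0.05 and -0.03.

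Among 16 other genes of NRF2 control, 4 fell and 1 rose after both (25% and 6.25%, against 14.4% and 8.66% of all genes). MAFF, a stress-induced small MAF gene, rose by 1.05 ± 0.15 after heat shock and 1.18 ± 0.15 after both. NFE2L3 and NFE2L1, which encode relatives of NRF2, fell by 0.99 ± 0.17 and 0.47 ± 0.11 after both. BTRC, an adaptor of the KEAP1-independent route of NRF2 degradation, fell by 0.53 ± 0.08. CUL3, the scaffold that works with KEAP1, fell by 0.37 ± 0.06 after heat shock and by 0.39 ± 0.06 after both.

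Among 14 haem and iron genes 6 fell and 1 rose after both (42.9% and 7.14%, against 14.4% and 8.66% of all genes). SLC40A1, the iron exporter ferroportin, fell by 1.19 ± 0.16, after wounding alone by 0.67 ± 0.16, and reached 4.79 after both, near background, so that size is approximate. FECH, which inserts iron into haem, fell by 0.60 ± 0.07 and AIFM2, a glutathione-independent suppressor of lipid peroxidation, by 0.44 ± 0.08, while ACSL4, which feeds polyunsaturated lipids into membranes, rose by 0.67 ± 0.12. HMOX2, the constitutive haem oxygenase, fell by 0.46 ± 0.07 after heat shock, where HMOX1 rose. Among 31 other glutathione genes 3 fell and 2 rose after both (9.68% and 6.45%, under the 14.4% and 8.66% of all genes). The glutaredoxin gene GLRX fell by 0.47 ± 0.07 and GGCT, of glutathione breakdown, by 0.30 ± 0.06. CHAC2, which also degrades glutathione, rose by 0.42 ± 0.07 after heat shock. Among 19 thioredoxin and peroxide genes 2 fell and 2 rose after both (10.5% each, near the 14.4% and 8.66% of all genes). SESN2, a stress-induced sestrin, rose by 0.88 ± 0.19. Among 25 genes of NADPH and drug metabolism 6 fell and 0 rose after both (24% and 0%, against 14.4% and 8.66% of all genes). At an unadjusted p under 0.05, 13 were lower and 0 higher. The falls were led by the exporter ABCC4 at 0.46 ± 0.08 and by CYP4F11 at 0.32 ± 0.08.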

How the data were processed

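Per the labels' protocols, 100 ng of RNA from each of 12 A549 samples went onto a PrimeView array. Per the submitters' processing notes, the authors used RMA and Affymetrix Expression Console, of unstated version, to make the log2 signals they deposited. Of 49293 probe sets, 1 with a missing value was left out, and 44987 had 1 symbol, 1832 several and 2473 none in the platform annotation. Each of 18132 genes was read through its probe set of highest mean. All 6 comparisons came from 1 limma 3.58.1 fit in R 4.3.3 (lmFit, eBayes, 8 residual degrees of freedom), with p-values adjusted by Benjamini-Hochberg over all genes, threshold 0.05. RMA's quantile step forces arrays to a common distribution, and bright probe sets can saturate. The fit was tested on simulated data. The number of arrays limits precision.

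Members and lists were chosen with earlier results of these data known. Array values are given for NFE2L2, KEAP1, MAFG, GCLC, GCLM, SLC7A11, NQO1, HMOX1, TXNRD1, SRXN1 and every called member, and from each further list up to 4 called genes a comparison, by size. Alternatives were median centring, cyclic loess, the mean of a gene's probe sets, a mean level of at least 5, a trended and robust spread, only the compared groups, a replicate block, and each array left out.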

Additional observations from a re-analysis of the deposited data

How the results depend on the processing

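All 30 called differences of members kept their direction in the 19 alternative fits, and 20 kept their call in each. For 26 of the 30 the gene had another probe set, and for 18 at least 1 of these passed in the same direction. None passed in the opposite direction. No other probe set passed for UGDH after heat shock, NFE2L2 after wounding, or GSR, ABCC2, TXNRD1 and ME1 in the combined group. The count of falls after both treatments, 11, became 7 with median centring, 7 with cyclic loess and 18 with the trended and robust spread, and lay between 7 and 11 with 1 array left out. After heat shock the falls, 0, became 2 without dim genes and 3 with the trended spread, and lay between 0 and 1 with 1 array left out. The rises there, 3, became 4 without dim genes or with the trended spread, and lay between 2 and 3 with 1 array left out. After wounding the falls, 1, became 0 with the mean of probe sets, 2 without dim genes and 5 with the trended spread, and lay between 0 and 2. For both treatments against wounding the rises, 1, became 2 without dim genes, with the trended spread or with the replicate block, and lay between 1 and 2. The falls there, 5, became 8 with the trended spread. They became 4 with cyclic loess or with only the compared groups, where KEAP1 did not pass, and lay between 4 and 5 with 1 array left out. Against heat shock the falls, 7, became 4 with only the compared groups and 9 with the trended spread, and lay between 6 and 7 with 1 array left out. The causes were not tested. Fitting only the compared groups is the full fit for the interaction.

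With group means subtracted per gene, same-numbered arrays of different groups correlated at -0.19 to 0.23 over 18 pairs, 6 of them over 0.1. Arrays with different numbers correlated at -0.19 to 0.24, and 8 of 12 arrays correlated best, on average, with their own number. These values do not settle whether the numbers pair the samples, and the main fit has no pairing. The replicate block ended the calls of TXNRD1 after both against control (adjusted p = 0.0635, limma) and of SRXN1 after both against heat shock (adjusted p = 0.0647, limma), and no other call of a member, and HMOX1 and OSGIN1 passed with it for both treatments against wounding (adjusted p = 0.0483 and 0.0441, limma). Among the 78 genes with a control mean above 13, 0 passed in limma after both treatments, 4 had an unadjusted p under 0.05 and 8 passed with the trended spread.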
